A study of Mus musculus with 12 samples.

Results

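The SR and hnRNP splicing factors comprised 37 rows of the 20457 genes in the expression table of mouse hematopoietic stem cells. They were taken by name: rows that begin with Srsf or Hnrnp, and Sf3b1, Sf3a1, U2af1, U2af2, Zrsr2, Tra2a and Tra2b, without pseudogene names. This gave 12 Srsf rows, 2 Tra2 genes, 5 factors of the 3′ splice site and 18 hnRNP genes. One Srsf row, named Srsf2.1, carries an Ensembl identifier that the gene annotation at hand does not hold, so 36 rows had an annotated gene. Hnrpll and Hnrpdl, written in an older spelling, fell outside the name rule. Their differences averaged -0.13 and 0.05 log2 units for old minus young, and 0.14 and 0.09 for IL27RA+ minus IL27RA- cells. All 37 rows passed the filter on low values, as did 14723 genes in all.

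The cells were sorted from bone marrow of C57BL/6 mice, and every library was made with Smart-Seq2, which copies whole transcripts, from 50 cells. The 4 groups were stem cells of old mice (28 months) sorted as positive for the cytokine receptor IL27RA, IL27RA- stem cells of old mice, IL27RA+ stem cells of young mice (2 months) and IL27RA- stem cells of young mice, with 3 libraries each. The labels name no genotype, drug or infection, and no sort marker besides IL27RA. For old IL27RA- replicate 1, one label calls the donor young, while its title and its age say old. Nothing in the labels ties the 3 libraries of a group to different mice. The p-values below therefore cover the spread among libraries, and that spread may be technical.

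Before an intron is removed, its ends must be recognised. At the 3′ end the U2AF pair reads the pyrimidine tract and the AG, and the U2 particle, with its SF3A and SF3B subunits, binds the branch point. SR proteins bind exonic enhancers through RNA recognition motifs and recruit these factors through domains rich in arginine and serine, while hnRNP proteins coat the nascent transcript and often oppose exon inclusion. In human myelodysplastic syndromes, which arise in hematopoietic stem cells, SRSF2, SF3B1, U2AF1 and ZRSR2 are recurrently mutated. Many SR genes hold an exon whose inclusion sends the transcript to nonsense-mediated decay, and values per gene do not separate such transcripts from the coding ones.

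The libraries held 11669083 to 24153167 reads in genes. In each, 1.52% to 2.19% of these reads fell on the 37 splicing factor rows. A floor of 3 reads corresponded to 1.93 to 3.77 normalized counts, and such floors cover counting error only. All 12 stem cell markers of the list used were detected, with a summed level of 50921 to 71983 normalized counts over the libraries. The mRNA of the sorted receptor did not separate the fractions: Il27ra had 1148 to 1498 normalized counts in old IL27RA+, 1075 to 1632 in old IL27RA-, 887 to 1253 in young IL27RA+ and 711 to 1564 in young IL27RA- libraries. Igkc, an immunoglobulin transcript, reached 312300 normalized counts in old IL27RA- replicate 1, against 18.8 to 248 in the other libraries. It and young IL27RA- replicate 2 had the lowest library weights in limma, 0.54 and 0.43. Since each library is a bulk of cells, fewer cells with a transcript and less of it per cell cannot be told apart.

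The splicing factor genes spanned a wide range of levels. Per kb of merged exon, and averaged over all 12 libraries, Srsf5 had the highest level at 8306 normalized counts per kb, followed by Hnrnpa2b1 at 6269, Hnrnpk at 5599, Srsf2 at 5092 and Hnrnpf at 4593. At the low end were Sf3a1 with 98.6, Zrsr2 with 76.8 and Srsf12 with 21.3 normalized counts per kb. Merged exon takes in the exons of every annotated transcript of a gene, so the order per kb depends partly on the annotation. Of all reads on the 37 rows, Hnrnpa2b1 took 14.3%, Hnrnpk 12.6% and Srsf5 11.5%. In this order, the ranges over the 12 libraries overlapped for all 35 pairs of neighbours. The order of neighbours within single libraries was not tested.

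**Figure D1:**
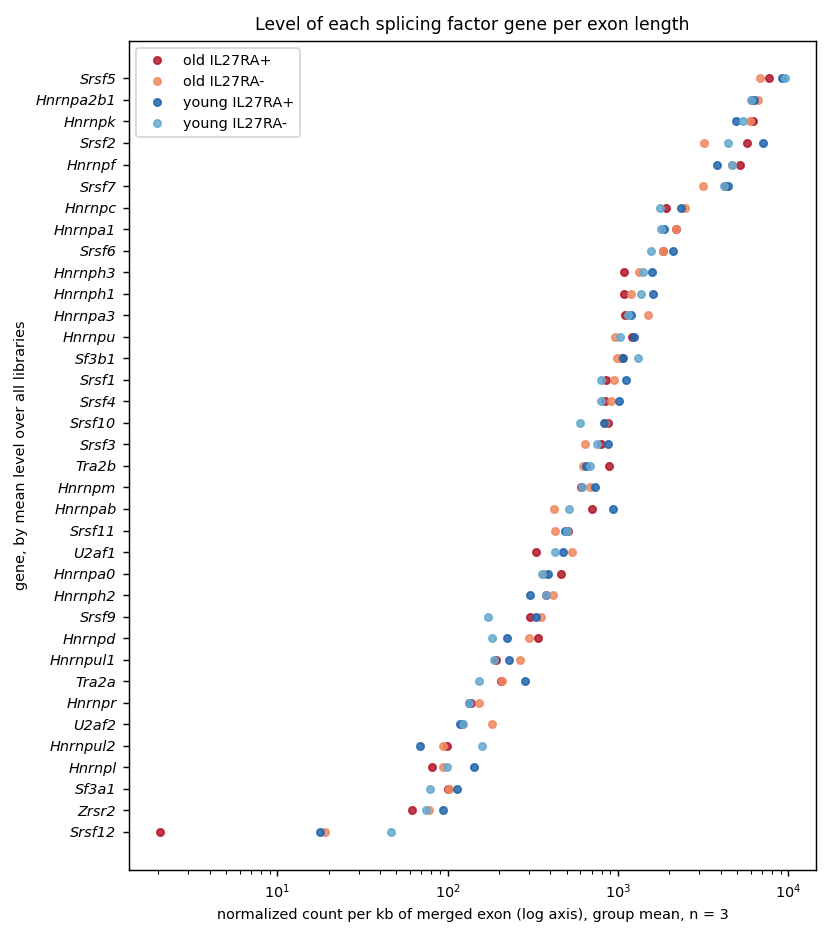
Level of each of the 36 splicing factor genes with an annotated length, as the mean of 3 libraries per group in normalized counts per kb of merged exon on a log axis. The order runs down from Srsf5 (8306 per kb over all libraries) to Srsf12 (21.3), and for most genes the 4 group means lie close together.

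Levels per library are given first for the most abundant and steadiest genes. Hnrnpa2b1, which binds nascent and mature transcripts, had 39840, 33974 and 47012 normalized counts in old IL27RA+, 43805, 41577 and 45242 in old IL27RA-, 40441, 51330 and 32924 in young IL27RA+ and 30610, 44995 and 43515 in young IL27RA- libraries. Hnrnpk, a binder of C-rich sequence, had 36656, 35063 and 48039 in old IL27RA+, 34685, 38403 and 41727 in old IL27RA-, 39464, 25849 and 29970 in young IL27RA+ and 34473, 31469 and 38604 in young IL27RA- libraries. All groups of both genes overlapped, and the SD over the 12 libraries was 0.22 log2 units for Hnrnpa2b1 and 0.23 for Hnrnpk. Srsf5, an SR protein, had 30004, 30224 and 31394 in old IL27RA+, 23696, 30590 and 27340 in old IL27RA-, 25449, 43571 and 40734 in young IL27RA+ and 23034, 47866 and 43614 in young IL27RA- libraries. The young groups of Srsf5 each held 1 low and 2 high libraries, and old and young libraries overlapped in both fractions.

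At the other end of the range, Srsf12 was close to absent. It had 19.4, 0 and 0 normalized counts in old IL27RA+, 0, 154 and 26.4 in old IL27RA-, 0.94, 0 and 168 in young IL27RA+ and 143, 0 and 293 in young IL27RA- libraries. Every group held at least 1 library at 0 or under 1, so no fold is given for this gene. Zrsr2, which acts at the 3′ splice site of the minor class of introns, had 306, 501 and 528 in old IL27RA+, 592, 611 and 463 in old IL27RA-, 372, 1077 and 579 in young IL27RA+ and 554, 268 and 778 in young IL27RA- libraries. For Sf3a1, a subunit of the U2 particle, 524, 426 and 908 were found in old IL27RA+, 514, 634 and 726 in old IL27RA-, 836, 506 and 741 in young IL27RA+ and 643, 301 and 512 in young IL27RA- libraries. The groups of Zrsr2 and Sf3a1 overlapped in all comparisons.

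**Figure D2:**
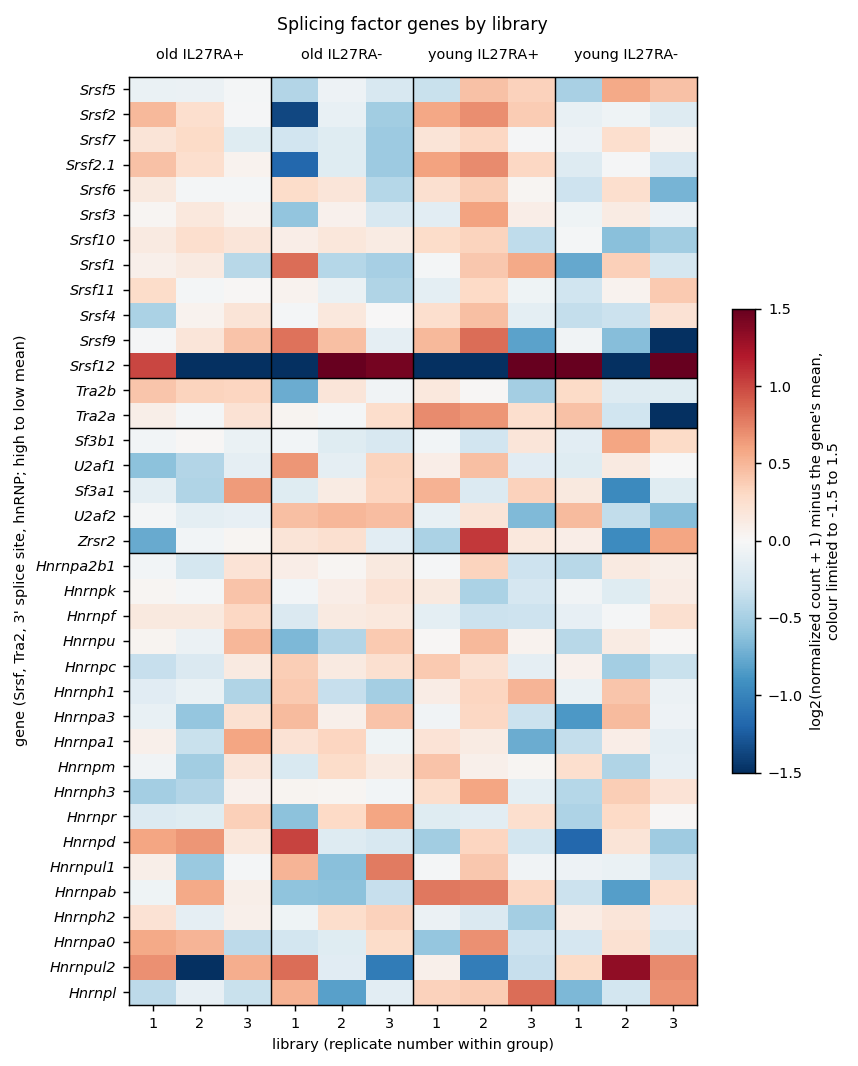
Each of the 37 rows in each of the 12 libraries, as log2(normalized count + 1) minus the mean of that gene over the libraries, with colours limited to -1.5 and 1.5. Srsf2 and Srsf2.1 are higher in the 6 IL27RA+ than in the 6 IL27RA- libraries, Srsf12 switches between extremes within groups, and most other rows stay pale.

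Spread within groups was small for these genes. The median SD within groups was 0.35 log2 units over the 37 rows, beside 0.71 over all genes tested. Part of that gap goes with level: for genes with a mean of at least 500 normalized counts, it was 0.33 over 35 splicing factor rows and 0.44 over 6573 genes. Besides Srsf12, the widest SD over the 12 libraries belonged to Hnrnpul2, a relative of the scaffold protein Hnrnpu, at 0.94, and to Tra2a at 0.79. Hnrnpul2 had 1014, 173 and 922 normalized counts in old IL27RA+, 1130, 563 and 304 in old IL27RA-, 667, 307 and 495 in young IL27RA+ and 771, 1597 and 1038 in young IL27RA- libraries. Young IL27RA+ libraries of Hnrnpul2 all lay below young IL27RA- libraries, while the old groups overlapped.

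No splicing factor gene was called in any comparison at an adjusted p of 0.05 by limma, with adjustment over 14723 genes. In old against young cells, averaged over the fractions, 1.88% of all genes were called and 0 of 37 splicing factor rows. In IL27RA+ against IL27RA- cells, averaged over ages, 0.19% of all genes were called, and again 0 of 37. Within fractions and ages the called share of all genes was 0.421% for old against young IL27RA+, 0.672% for old against young IL27RA-, 0.0272% for IL27RA+ against IL27RA- in old and 0.0204% in young cells. For the interaction of age and fraction it was 0%. Where so few genes are called, 0 of 37 says little about these genes. Limma voom on the recovered reads also called 0 of 37 in all 7 comparisons.

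The intervals say more than the missing calls. In the averaged age comparison the 95% interval stayed within 2-fold in either direction for 32 of the 37 rows, beside 34.6% of all genes tested. In the averaged comparison of the fractions this held for 30 rows, beside 38.7% of all genes. The median SE was 0.19 log2 units for the splicing factors and 0.42 over all genes. Levels differ between these sets: 35 of the 37 rows had a mean of at least 500 normalized counts, beside 6573 of all 14723 genes. Intervals and SE were not compared at matched level. Within strata, fewer libraries carry each value: the interval stayed within 2-fold for 22 rows in old against young IL27RA+ (18.5% of all genes), 26 in old against young IL27RA- (17.3%), 21 in IL27RA+ against IL27RA- of old cells (21.7%) and 25 of young cells (19.4%). For the interaction it was 9 rows (6.04%).

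**Figure D3:**
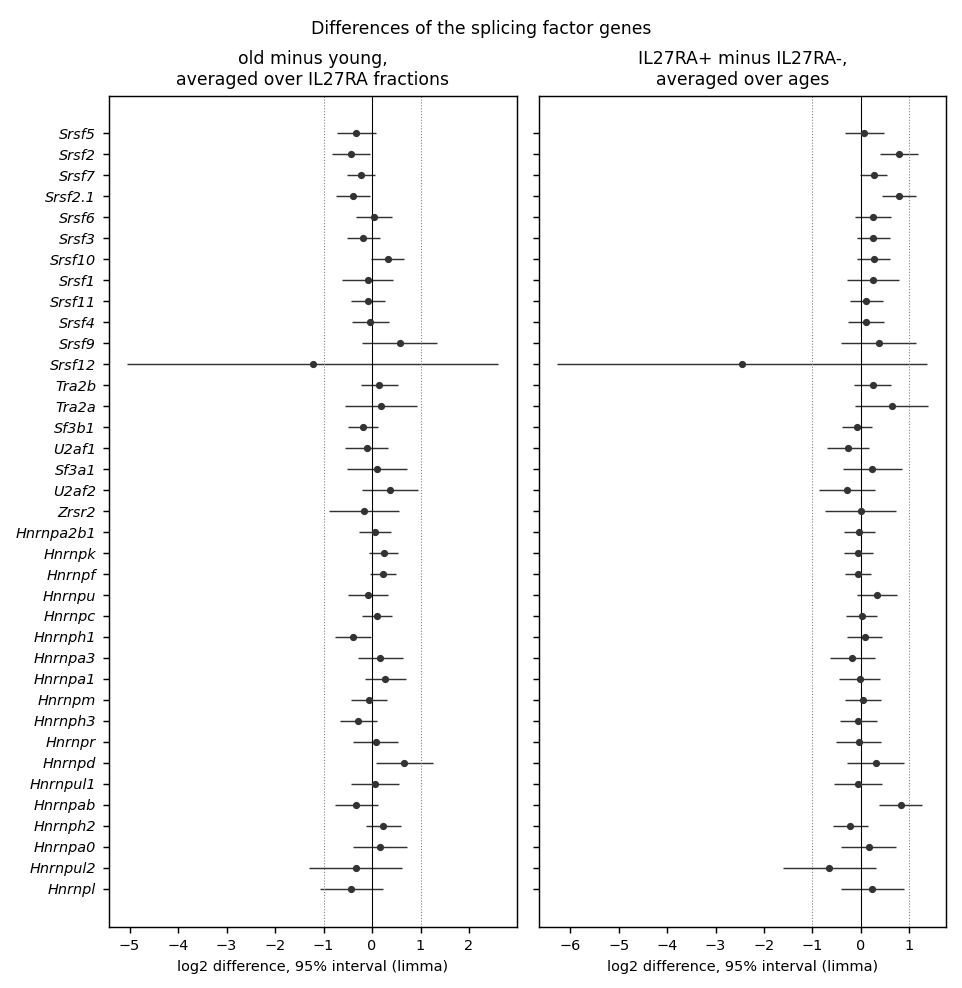
Log2 difference and 95% interval (limma) for each of the 37 rows, old minus young on the left and IL27RA+ minus IL27RA- on the right, each averaged over the other factor. Dotted lines mark 2-fold. On the left 32 intervals and on the right 30 lie inside the dotted lines, and on the right Srsf2, Srsf2.1 and Hnrnpab lie to the right of 0.

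An unadjusted limma p below 0.05 was reached by 1 to 6 rows per comparison. It was 4 rows (1 higher, 3 lower) for age averaged over fractions, where 15.1% of all genes did so, and 3 rows, all higher, for IL27RA averaged over ages, beside 7.97%. By stratum it was 2 rows in old against young IL27RA+ (8.89% of all genes), 4 in old against young IL27RA- (12.5%), 6 in the fractions of old cells (5.38%) and 4 in those of young cells (8.21%). For the interaction it was 1 row, beside 5.18%. The 6 rows in the fractions of old cells were a larger share than that of all genes. They included both Srsf2 and Srsf2.1. This count was 3 without old IL27RA+ replicate 1 or without old IL27RA- replicate 1, and 2 without old IL27RA+ replicate 2. Voom gave 4, 4, 2, 6, 6, 6 and 1 rows for the same 7 comparisons. The median difference over the 37 rows was -0.03 log2 units for age and 0.08 for IL27RA, beside 0.06 and 0.05 over all genes. Over the other settings the median of the 37 rows ran from -0.10 to 0.053 for age, so its sign was not stable, and from 0.040 to 0.18 for IL27RA.

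**Figure D4:**
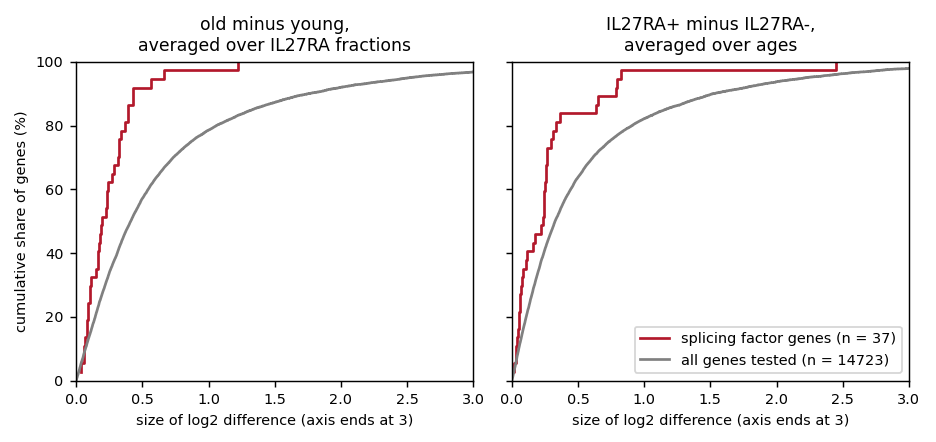
Cumulative share of genes by the size of the log2 difference, for the 37 splicing factor rows and for all 14723 genes tested, in old minus young (left) and IL27RA+ minus IL27RA- (right) cells. The curve of the splicing factors climbs earlier: the median size was 0.19 for age and 0.24 for IL27RA, beside 0.41 and 0.33 for all genes. The sets were not matched for level.

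The gene with the clearest separation of the fractions was Srsf2, an SR protein that reads exonic enhancers rich in C or G. Srsf2 had 19768, 16918 and 14008 normalized counts in old IL27RA+, 5487, 13122 and 9864 in old IL27RA-, 21109, 23020 and 18431 in young IL27RA+ and 13082, 13580 and 12356 in young IL27RA- libraries. All 6 IL27RA+ libraries lay above all 6 IL27RA- libraries, which was the case for 0.306% of the genes tested. The row Srsf2.1 followed it, with 15716, 13796 and 12051 in old IL27RA+, 5137, 10231 and 7927 in old IL27RA-, 17580, 18941 and 14389 in young IL27RA+ and 10182, 11468 and 9748 in young IL27RA- libraries. Its value was 0.778 to 0.936 of that of Srsf2 in every library, so both rows may count reads of one locus, and they are not taken as 2 independent genes. On average over ages, Srsf2 was 0.79 ± 0.18 log2 units (SE) higher in IL27RA+ cells, or 1.73-fold, with a limma adjusted p of 0.126. Srsf2.1 differed by 0.79 ± 0.16, with an adjusted p of 0.0865. Neither passed the threshold, and the 95% interval of Srsf2 ran from 0.40 to 1.19. The lowest Srsf2 value came from the library with the high Igkc, old IL27RA- replicate 1. Without it, the averaged difference was 0.62 and that in old cells 0.56, against 0.91 with it. Over 21 alternative settings the averaged difference lay between 0.62 and 0.93, with adjusted p between 0.0659 and 0.375 (limma, or limma voom in 1 setting).

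Hnrnpab, an RNA and single-strand DNA binding protein related to Hnrnpd, showed the other large difference between the fractions. It had 1607, 2479 and 1791 normalized counts in old IL27RA+, 1105, 1095 and 1316 in old IL27RA-, 2913, 2849 and 2084 in young IL27RA+ and 1343, 947 and 1992 in young IL27RA- libraries. Within each age every IL27RA+ library lay above every IL27RA- library. Averaged over ages Hnrnpab was 0.82 ± 0.21 log2 units higher in IL27RA+ cells, with an interval of 0.38 to 1.26 and an adjusted p of 0.191, and so did not pass the test. Over the same settings its difference lay between 0.67 and 0.96, with adjusted p between 0.0939 and 0.394. Separation at both ages with IL27RA+ on top was seen for 3 of the 37 rows (Srsf2, Srsf2.1 and Hnrnpab) and for 0.598% of all genes. The opposite order at both ages was seen for 0 rows and 0.38% of all genes.

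Neighbouring genes bear on how these counts are read, because the labels do not state a counting by strand. In the GENCODE annotation 29.1% of the exon bases of Hnrnpab are shared with Phykpl on the opposite strand, and 15.6% and 9.74% of those of Srsf2 with Mettl23 and Mfsd11. For these neighbours the averaged difference between IL27RA+ and IL27RA- cells was -0.36 ± 0.32 log2 units for Phykpl, 0.03 ± 0.18 for Mettl23 and 0.31 ± 0.28 for Mfsd11. Their adjusted p were 0.854, 0.987 and 0.859. The interval of Mfsd11 ran from -0.28 to 0.90. Phykpl had at most 1808 normalized counts, Mettl23 at most 3771 and Mfsd11 at most 1178. The part of shared reads in the Srsf2 and Hnrnpab differences was not tested. Other rows with a large shared part were Srsf4, with 43.0% of its exon bases shared with Gm12992 on the opposite strand, and Hnrnpm, with 14.7% shared with March2 on the same strand.

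Other measured quantities moved with the fractions as well. The summed level of a list of 40 cell cycle genes, all detected, was 30515 to 44577 normalized counts in old IL27RA+, 7598 to 12119 in old IL27RA-, 14274 to 34903 in young IL27RA+ and 18924 to 28643 in young IL27RA- libraries. The sums of the young fractions overlapped and those of the old did not. Gene by gene, 40 of 40 were higher in IL27RA+ cells averaged over ages (median 2.42 log2 units), beside 54.1% of all genes. In old cells it was 40 of 40 (median 3.48), beside 51.9%, and in young cells 31 of 40 (median 0.81), beside 52.3%. An unadjusted limma p below 0.05 was reached by 29 higher and 0 lower genes in old cells. In young cells it was reached by 2 higher and 2 lower genes. Macrophage markers, of which 10 of 12 reached 10 normalized counts in some library, summed to 1194 to 5417 in old IL27RA+, 441 to 1195 in old IL27RA-, 3184 to 5497 in young IL27RA+ and 582 to 626 in young IL27RA- libraries. These sums overlapped narrowly between the old fractions and did not overlap between the young ones. Single macrophage genes were not counted. C1qa, on this list, had 124 to 1589 in old IL27RA+, 0 to 87.6 in old IL27RA-, 812 to 999 in young IL27RA+ and 0 to 68.9 in young IL27RA- libraries. The sum of the stem cell list ran the other way, with 50921 to 57765 in old IL27RA+, 67468 to 71983 in old IL27RA-, 52363 to 60856 in young IL27RA+ and 60708 to 71893 in young IL27RA- libraries. The young sums overlapped slightly. Single genes of this list differed. In old cells Procr had 7427 to 9323 in IL27RA+ and 11868 to 15274 in IL27RA- libraries. Slamf1 was higher in old IL27RA+ (1297 to 1770) than in old IL27RA- libraries (953 to 1133), and Kit overlapped. In young cells Procr had 4654 to 7069 in IL27RA+ and 8703 to 9582 in IL27RA- libraries. Slamf1 overlapped there, with 342 to 816 in young IL27RA+ and 643 to 1233 in young IL27RA- libraries. The part of these lists in the Srsf2 and Hnrnpab differences was not tested.

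**Figure D5:**
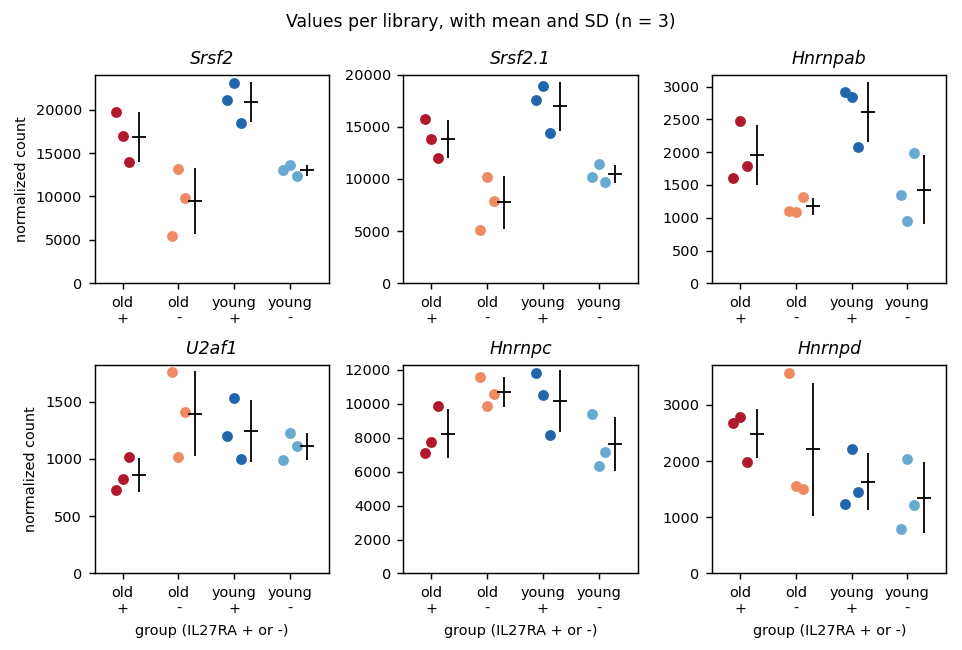
Normalized counts of 6 splicing factor rows in each library (points), with the mean and SD of 3 libraries beside them. Srsf2, Srsf2.1 and Hnrnpab are higher in IL27RA+ libraries at both ages without overlap, U2af1 is lowest in old IL27RA+ libraries, and Hnrnpd is widely spread within groups.

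The start regions of Srsf2 and Hnrnpab are shown because these 2 loci carried the largest averaged differences between the fractions, apart from the barely detected Srsf12. They are RefSeq windows on GRCm38.p6 from 250 bases before to 50 bases after the start, on the minus strand at chr11:116853045-116853344 (Srsf2) and chr11:51606832-51607131 (Hnrnpab). Capitals mark TATAAA and CCAAT on either strand (CCAAT on the other strand reads ATTGG).
Srsf2: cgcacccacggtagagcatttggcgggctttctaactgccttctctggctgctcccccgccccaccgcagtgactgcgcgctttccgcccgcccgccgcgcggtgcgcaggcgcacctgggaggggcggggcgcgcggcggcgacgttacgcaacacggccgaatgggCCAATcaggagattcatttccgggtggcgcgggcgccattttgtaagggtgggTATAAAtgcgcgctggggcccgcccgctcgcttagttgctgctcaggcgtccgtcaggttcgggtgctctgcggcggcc
Hnrnpab: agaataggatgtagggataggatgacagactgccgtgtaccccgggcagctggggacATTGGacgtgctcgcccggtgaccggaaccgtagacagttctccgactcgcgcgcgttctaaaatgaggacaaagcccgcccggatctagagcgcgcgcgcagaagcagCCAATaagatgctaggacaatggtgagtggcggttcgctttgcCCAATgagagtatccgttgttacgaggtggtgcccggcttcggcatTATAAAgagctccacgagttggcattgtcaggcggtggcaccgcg
In the Srsf2 window TATAAA begins at -29, counted with the start as +1, and CCAAT at -82. In the Hnrnpab window TATAAA begins at +6, inside the transcribed part, CCAAT at -84 and -41, and CCAAT on the opposite strand at -193. A match to these letters is a description, not a binding site.

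Windows of this kind were found for 34 of the splicing factor genes. The TATA box letters TATAAA were present on either strand in 4 of them (Srsf2, Srsf3, Hnrnpab and Hnrnpm), or 11.8%, and in 14.2% of all 27025 windows. The CCAAT box was present in 18 (52.9%), beside 37.9% of all windows. GGGCGG, the core of the GC box, was in 28 (82.4%), beside 35.9%, and CCGGAA, an ETS core, in 14 (41.2%), beside 15.2%. CACGTG, the E-box, was in 4 (11.8%), beside 7.24%, and TTCNNNGAA, the core of a STAT site, in 3 (8.82%), beside 8.47%. The windows of the splicing factors were rich in CpG, with a median of 27.5 CpG and 63.3% G+C, beside 7 CpG and 52.7% over all windows. Both strands were searched, and matches of different motifs may share bases. The part of base composition in these shares was not tested.

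By class, 11 of the 12 Srsf rows were higher in IL27RA+ cells on average over ages, with a median of 0.25 log2 units beside 0.05 for all genes, of which 54.1% had a positive difference. The exception was Srsf12. Within old cells it was 8 of 12 (median 0.12), beside 51.9% of all genes, and within young cells 9 of 12 (median 0.40), beside 52.3%. Counting Srsf2 and Srsf2.1 once, it was 10 of 11 averaged over ages, and the same averaged counts were found with scaling by total reads and by upper quartile. Of these rows 2, Srsf2 and Srsf2.1, had an unadjusted p below 0.05. Srsf7, a shuttling SR protein, came next by p, though not by size, with 0.26 ± 0.13 (adjusted p = 0.669). Srsf3 and Srsf10 also had 0.26 ± 0.16. In contrast 8 of 18 hnRNP genes had a positive difference, and 1 of the 5 factors of the 3′ splice site. These 2 counts changed with the scaling, to 11 and 2 by total reads and to 15 and 3 by upper quartile. The difference between the classes was not tested.

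Other hnRNP genes had differences between the fractions that did not pass the test. Hnrnpu, a scaffold protein of the nuclear matrix, had 12823, 11790 and 17641 normalized counts in old IL27RA+, 7837, 9175 and 16412 in old IL27RA-, 12640, 17441 and 12902 in young IL27RA+ and 9348, 13565 and 12633 in young IL27RA- libraries. The fractions of Hnrnpu overlapped at both ages, and the averaged difference was 0.33 ± 0.19 (adjusted p = 0.704). Hnrnpa1, which binds UAG motifs and favours distal splice sites, differed by -0.03 ± 0.20, and its relatives Hnrnpa3 and Hnrnpa0 by -0.18 ± 0.22 and 0.16 ± 0.26. Further values were 0.04 ± 0.17 for Hnrnpm, -0.04 ± 0.22 for Hnrnpr and -0.22 ± 0.17 for Hnrnph2. In none of these 7 genes did the fractions separate at either age. Averaged differences of the hnRNP genes described with age were 0.31 ± 0.28 for Hnrnpd, 0.24 ± 0.30 for Hnrnpl, 0.08 ± 0.17 for Hnrnph1 and -0.06 ± 0.18 for Hnrnph3, and that of Hnrnpul2 was -0.65 ± 0.45. Hnrnpul1 had 1939, 1237 and 1780 in old IL27RA+, 2588, 1180 and 3121 in old IL27RA-, 1782, 2398 and 1749 in young IL27RA+ and 1727, 1695 and 1459 in young IL27RA- libraries. Its young fractions were separated by a narrow margin, and its old fractions overlapped.

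Within old cells the fractions did not overlap for 6 rows, 4 higher (Srsf2, Srsf2.1, Hnrnpab and Tra2b) and 2 lower (U2af2 and Hnrnpc), and non-overlap was seen for 12.6% of all genes. The margin of Hnrnpc was narrow, with 9843 as its highest old IL27RA+ and 9846 as its lowest old IL27RA- value. Tra2b, which binds enhancers rich in GAA, had 8525, 8038 and 7970 normalized counts in old IL27RA+, 3800, 7219 and 6154 in old IL27RA-, 7116, 6445 and 4483 in young IL27RA+ and 7765, 5562 and 5612 in young IL27RA- libraries. Its old IL27RA+ libraries were high and even, and old IL27RA- replicate 1 was the lowest of all. The difference of Tra2b in old cells was 0.56 ± 0.25 (adjusted p = 0.904), and 0.29 without old IL27RA- replicate 1. U2af1, the subunit that reads the AG of the 3′ splice site, had 727, 828 and 1018 in old IL27RA+, 1763, 1017 and 1409 in old IL27RA-, 1198, 1531 and 997 in young IL27RA+ and 989, 1229 and 1111 in young IL27RA- libraries. Its old groups overlapped by a single count, and the difference in old cells was -0.68 ± 0.29 (adjusted p = 0.871). Its partner U2af2, which binds the pyrimidine tract, had 529, 486 and 492 in old IL27RA+ and 735, 757 and 743 in old IL27RA- libraries, without overlap, and a difference of -0.57 ± 0.38. In young cells U2af2 ranged from 339 to 614 in IL27RA+ and from 344 to 750 in IL27RA- libraries.

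Within young cells the fractions did not overlap for 6 rows as well, 4 higher (Srsf2, Srsf2.1, Hnrnpab and Hnrnpul1) and 2 lower (Hnrnpul2 and Hnrnpf), beside 9.79% of all genes. Tra2a, the close relative of Tra2b, had 1429, 1313 and 1561 in old IL27RA+, 1378, 1318 and 1615 in old IL27RA-, 2199, 2127 and 1599 in young IL27RA+ and 1825, 1089 and 266 in young IL27RA- libraries. The young fractions overlapped, and young IL27RA- replicate 3 stood far below the rest. The difference in young cells was 1.27 ± 0.49 (adjusted p = 0.522), and 0.47 without that library. In old cells it was 0.00 ± 0.49.

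Age differences were mostly small, with a median size of 0.19 log2 units over the 37 rows, and 0 passed the test. Averaged over the fractions, Hnrnpd, which binds AU-rich elements and promotes mRNA decay, had the smallest p. It had 2675, 2791 and 1984 normalized counts in old IL27RA+, 3570, 1550 and 1504 in old IL27RA-, 1230, 2208 and 1457 in young IL27RA+ and 783, 2028 and 1222 in young IL27RA- libraries. Old and young libraries overlapped in both fractions, and the averaged difference was 0.67 ± 0.28 (adjusted p = 0.269). The highest Hnrnpd value came from old IL27RA- replicate 1. Over 21 other settings the Hnrnpd difference lay between 0.46 and 0.84. For Srsf2 the averaged difference was -0.43 ± 0.18 (adjusted p = 0.292), and -0.25 without old IL27RA- replicate 1. Srsf2.1 gave -0.39 ± 0.16, and -0.25 without that library. Hnrnph1, a binder of G runs, gave -0.39 ± 0.17 (adjusted p = 0.303). No row separated old from young in both fractions: 0 of 37 had old above young, beside 2.07% of all genes, and 0 had old below, beside 1.24%. The smallest age differences were those of Srsf4 (-0.03 ± 0.17), Srsf6 (0.04 ± 0.18), Hnrnpa2b1 (0.06 ± 0.15) and Hnrnpul1 (0.06 ± 0.23).

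In IL27RA+ cells old and young did not overlap for 5 rows, 2 higher (Hnrnpf and Tra2b) and 3 lower (Hnrnph1, Hnrnpl and Tra2a), beside 16.9% of all genes. Hnrnpf, also a binder of G runs, had 15333, 15315 and 17163 in old IL27RA+, 11874, 15228 and 15405 in old IL27RA-, 12530, 11051 and 11211 in young IL27RA+ and 12758, 13676 and 16406 in young IL27RA- libraries. Old IL27RA+ cells were 0.46 ± 0.18 above young IL27RA+ cells (adjusted p = 0.448), and the IL27RA- groups overlapped. Hnrnph1 had 6601, 6985 and 5463 in old IL27RA+, 9823, 5885 and 5216 in old IL27RA-, 8072, 9290 and 10648 in young IL27RA+ and 6949, 9926 and 7037 in young IL27RA- libraries. It ran the other way from its relative Hnrnpf in IL27RA+ cells, at -0.55 ± 0.24 (adjusted p = 0.526). The third of these relatives, Hnrnph3, had 2912, 3056 and 4329 in old IL27RA+, 4263, 4215 and 4006 in old IL27RA-, 4964, 6221 and 3750 in young IL27RA+ and 3085, 5345 and 4764 in young IL27RA- libraries. Its IL27RA+ groups overlapped, with a difference of -0.53 ± 0.25 (adjusted p = 0.588). Hnrnpl, which binds CA repeats, had 443, 534 and 461 in old IL27RA+, 835, 331 and 520 in old IL27RA-, 738, 755 and 1041 in young IL27RA+ and 363, 481 and 931 in young IL27RA- libraries. Each old IL27RA+ value of Hnrnpl lay below each young IL27RA+ value, at -0.80 ± 0.43 (adjusted p = 0.641).

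In IL27RA- cells 3 rows did not overlap between old and young, 2 higher (Hnrnpc and Srsf10) and 1 lower (Srsf7), beside 14.5% of all genes. Hnrnpc, which binds U tracts and forms the core of the hnRNP particle, had 7098, 7748 and 9843 in old IL27RA+, 11604, 9846 and 10592 in old IL27RA-, 11805, 10502 and 8170 in young IL27RA+ and 9378, 6333 and 7157 in young IL27RA- libraries. The high groups were old IL27RA- and young IL27RA+ cells. The age difference of Hnrnpc was 0.50 ± 0.21 in IL27RA- cells (adjusted p = 0.343) and -0.30 ± 0.21 in IL27RA+ cells. Its interaction of age and fraction was -0.80 ± 0.30, the only interaction among the 37 rows with an unadjusted p below 0.05, with an adjusted p of 0.895. The next smallest p of the interaction belonged to U2af1 (-0.83 ± 0.41), Hnrnpf (0.47 ± 0.25) and Tra2a (-1.27 ± 0.70, and -0.47 without young IL27RA- replicate 3). Srsf10, which represses splicing when dephosphorylated, had 5907, 6366 and 6083 in old IL27RA+, 5746, 6043 and 5823 in old IL27RA-, 6477, 6743 and 4106 in young IL27RA+ and 5250, 3479 and 3752 in young IL27RA- libraries. All 6 old values lay between 5746 and 6366, and the young values were spread more widely. Its difference in IL27RA- cells was 0.52 ± 0.22 (adjusted p = 0.355). Srsf7 had 16030, 17045 and 12365 in old IL27RA+, 11462, 12374 and 9624 in old IL27RA-, 16000, 17364 and 13791 in young IL27RA+ and 13246, 16634 and 14459 in young IL27RA- libraries. Old IL27RA- was its lowest group, at -0.41 ± 0.19 against young IL27RA- (adjusted p = 0.395). Srsf9 is an SR protein with a short tail domain, and had 431, 494 and 588 in old IL27RA+, 766, 597 and 397 in old IL27RA-, 610, 780 and 251 in young IL27RA+ and 419, 281 and 151 in young IL27RA- libraries. The IL27RA- groups of Srsf9 overlapped slightly, with a difference of 1.11 ± 0.51 (adjusted p = 0.389), and 0.72 without young IL27RA- replicate 3.

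Of the factors mutated in human myelodysplastic syndromes, Sf3b1, the branch point subunit, was the steadiest. It had 11978, 12524 and 11559 in old IL27RA+, 12062, 10902 and 10458 in old IL27RA-, 12035, 10173 and 14043 in young IL27RA+ and 11084, 18577 and 15125 in young IL27RA- libraries. Its 2 highest values came from young IL27RA- replicates 2 and 3, and the groups overlapped. The age difference of Sf3b1 was -0.19 with an interval of -0.50 to 0.11, and the difference between fractions was -0.09 with an interval of -0.39 to 0.22 (0.020 with upper quartile scaling). With 1 library left out they ran from -0.29 (without young IL27RA- replicate 1) to -0.11 (without young IL27RA- replicate 2) for age, and from -0.19 to -0.00027 between fractions. For U2af1 these intervals were -0.55 to 0.33 and -0.71 to 0.17, and for Zrsr2 -0.89 to 0.57 and -0.74 to 0.72. Srsf1, the founding member of the SR family, had 5281, 5524 and 3767 in old IL27RA+, 8952, 3731 and 3561 in old IL27RA-, 4925, 6624 and 7427 in young IL27RA+ and 2948, 6431 and 4180 in young IL27RA- libraries. Its highest value came from old IL27RA- replicate 1 and its groups overlapped. The intervals of Srsf1 were -0.62 to 0.44 for age and -0.28 to 0.78 for IL27RA.

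Lists of genes that work with these factors were taken for comparison. Of 84 tested snRNP and spliceosome core genes, 2 fell with age averaged over the fractions and 0 rose, beside 1.88% of all genes called in either direction. Xab2, a subunit of a spliceosomal complex also tied to DNA repair, was at 1066 to 1734 normalized counts in old IL27RA+, 1251 to 1456 in old IL27RA-, 2351 to 2429 in young IL27RA+ and 2039 to 3276 in young IL27RA- libraries. It fell by 0.90 ± 0.18 on the log2 scale (limma adjusted p = 0.0171), and all old values lay below all young values. Without old IL27RA+ replicate 1 its adjusted p was 0.0533, and without replicate 2 it was 0.0525. Cherp, associated with the U2 particle, was at 1027 to 1622 in old IL27RA+, 866 to 1035 in old IL27RA-, 1702 to 2040 in young IL27RA+ and 1895 to 2472 in young IL27RA- libraries. It fell by 0.88 ± 0.18 (adjusted p = 0.0192), also with no overlap, and the call was lost without old IL27RA+ replicate 1 (0.0622), old IL27RA+ replicate 2 (0.0644) or young IL27RA+ replicate 3 (0.0513). Within IL27RA- cells Cherp fell by 1.19 ± 0.25 (adjusted p = 0.0456), a call that held in 6 of 22 other settings. It was lost on leaving out any 1 library except old IL27RA+ replicate 3 and young IL27RA- replicate 1, with adjusted p of 0.0564 to 0.139.

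Beside 1.88% of all genes called with age in either direction, 1 of 46 tested further RNA-binding regulators of splicing fell and 0 rose. It was Ddx5, a DEAD-box RNA helicase, with 50170 to 56729 normalized counts in old IL27RA+, 32673 to 51376 in old IL27RA-, 68085 to 78239 in young IL27RA+ and 68613 to 91002 in young IL27RA- libraries. Ddx5 fell by 0.65 ± 0.14 (adjusted p = 0.0328) and old and young libraries did not overlap. The call held in 10 of 21 other settings. It was lost without any 1 of old IL27RA+ replicates 1, 2 and 3 (adjusted p = 0.0767, 0.0852 and 0.0901), old IL27RA- replicates 1 and 2 (0.0566 and 0.0603), young IL27RA+ replicates 2 and 3 (0.0845 and 0.0728) or young IL27RA- replicates 2 and 3 (0.0677 and 0.0548), and with upper quartile scaling (0.072). With the settings used in the text, 0% to 1.88% of all genes were called over the 7 comparisons. Kinases and carriers of SR proteins (17 tested), SR-related and exon junction proteins (27) and nonsense-mediated decay factors (15) had 0 called in each. Their smallest p in the averaged age comparison came from Clk4 (-0.73 ± 0.22, adjusted p = 0.124), a kinase of SR proteins, from Acin1 (-1.05 ± 0.27, adjusted p = 0.0636), of the exon junction complex, and from Smg1 (-0.59 ± 0.18, adjusted p = 0.112), the kinase of Upf1. Acin1 was called in 3 of 21 other settings, with total read scaling (adjusted p = 0.0429), with library weights (0.0373) and without young IL27RA- replicate 1 (0.0486). Clk4 was called in 2, on leaving out replicate 1 of young IL27RA+ (0.049) or of young IL27RA- (0.0299) cells. In the averaged comparison of the fractions, 0 genes of these 5 lists were called, beside 0.19% of all genes. The median age difference was -0.02 log2 units for the core genes, -0.03 for the further regulators, -0.0024 for the SR-related and exon junction proteins, -0.20 for the kinases and carriers and -0.22 for the decay factors, beside 0.06 for all genes. Their medians between the fractions were 0.045 for the core genes, 0.05 for the further regulators, 0.07 for the SR-related and exon junction proteins, 0.13 for the kinases and carriers and 0.02 for the decay factors, beside 0.05 for all genes.

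Some summed lists of blood cell markers moved with age in the same libraries. The megakaryocyte and platelet list, with 10 of 10 genes detected, summed to 14262 to 22459 normalized counts in old IL27RA+, 16189 to 18197 in old IL27RA-, 7427 to 10873 in young IL27RA+ and 9976 to 12185 in young IL27RA- libraries. The neutrophil list, with 7 of 10 genes detected, summed to 7794 to 10648 in old IL27RA+, 9052 to 13163 in old IL27RA-, 4075 to 5484 in young IL27RA+ and 3646 to 4436 in young IL27RA- libraries. The T and NK cell list, with 5 of 10 genes detected, summed to 850 to 1972 in old IL27RA+, 1499 to 2981 in old IL27RA-, 330 to 486 in young IL27RA+ and 127 to 622 in young IL27RA- libraries. Each of these sums was higher in all 6 old libraries than in all 6 young ones, but single genes were not counted. S100a8, on the neutrophil list, had 13.4 to 39.7 in old IL27RA+ and 27.3 to 97.8 in young IL27RA+ libraries. The erythroid list and the B and plasma cell list overlapped between ages in both fractions. In IL27RA+ cells the erythroid sum was 827 to 1795 in old and 760 to 5854 in young libraries. The part of the marker lists in the differences of Xab2, Cherp and Ddx5 was not tested.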

How the data were processed

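Gene levels were measured by RNA-seq (Smart-Seq2) in 12 libraries of 50 sorted cells, 4 groups of 3. The authors deposited log2 values per gene and library, which are log2(normalized count + 1). The submitters' processing notes name FastQC 0.11.5, TopHat2 2.1.1, HTSeq and DESeq2. The genome build and the strand setting were not given in the sources used here. A damaged line in the deposited file, whose number of fields differs from that of the header, was left out. Of 20473 lines, 1 was damaged and 15 were identical repeats, which left 20457 genes. With the logarithm undone and multiplied by the size factors read from their steps, 100% of values came out as whole reads within 0.001, and these gave the depth.

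Genes with at least 10 normalized counts in at least 3 libraries (14723) were fitted with limma 3.58.1 in R 4.3.3 on the deposited log2 scale, with 1 mean per group, a trended prior and all 12 libraries sharing the spread (8 residual and 6.62 prior degrees of freedom). P-values were two-sided and adjusted by Benjamini-Hochberg over all genes tested in each of 7 comparisons, with a threshold of 0.05. Fold changes are on the log2(value + 1) scale and understate the change of low genes. Normalized counts in the text were obtained by undoing that logarithm. Exon lengths and overlaps came from GENCODE M21, and start regions from RefSeq. Python 3.11.15 with pandas 2.3.3 drew up the tables and matplotlib 3.10.9 the figures. The procedure was tested on simulated data.

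The members and lists were chosen with earlier results of these data known. Members given in every library were chosen by rule: called members, per comparison the 4 of smallest p, Srsf1, Srsf2, Sf3b1, U2af1 and Zrsr2, the 3 highest and 3 lowest per kb, and the 3 with the largest and smallest SD among those with a mean of at least 50 normalized counts. Of each list, the called genes or those with the smallest p were named. Tra2b, U2af2, Hnrnpu, Hnrnpul1, the other members named with a difference, Phykpl, Mettl23, Mfsd11 and Igkc were chosen after their values were seen. Alternatives were other scalings, filters and pseudocounts, voom on recovered reads, library weights, a replicate block, the compared groups alone and each library left out.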

Additional observations from a re-analysis of the deposited data

How the results depend on the processing

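No splicing factor row was called in any comparison under any of the 22 alternative settings, and the lowest adjusted p was 0.0565 (Srsf2.1, IL27RA averaged over ages). Between 0 and 8 rows had an unadjusted p below 0.05. A few small differences changed sign. Sf3b1 in IL27RA+ minus IL27RA- cells was 0.020 with upper quartile scaling and 0.029 without both least weighted libraries, a setting chosen after seeing the data. Zrsr2 in the same comparison was 0.039 with total read scaling and 0.10 with upper quartile scaling, and ran from -0.22 to 0.17 with 1 library left out. With 1 library left out, the age difference ran from -0.38 to 0.039 for Zrsr2 and from -0.31 to 0.053 for Srsf1. The cause was not tested. Upper quartile scaling moved the median of all genes by 0.10 in the averaged comparison of the fractions and by 0.13 in young cells.

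Counts over all genes were less stable. They ran from 140 to 434 around 277 for age averaged over fractions, from 6 (voom) to 96 around 28 for IL27RA averaged over ages, from 4 to 137 around 62 for age in IL27RA+, from 0 (compared groups alone) to 281 around 99 for age in IL27RA-, from 0 to 86 around 4 for the fractions in old cells, from 0 to 50 around 3 in young cells and from 0 to 5 around 0 for the interaction. Replicate numbers are not stated to mark a shared animal or day. Deviations of same-numbered libraries correlated at -0.05 to 0.11 over 18 pairs, with 1 over 0.1. Those of other pairs correlated at -0.07 to 0.07. The highest values were 0.107 for replicate 1 of young IL27RA+ and young IL27RA-, and 0.095 for replicate 3 of old IL27RA+ and old IL27RA-. With deviations from means of only 3 libraries, these correlations cannot decide whether same-numbered libraries share an animal or day. With a replicate block, 0 of 37 rows were called, and Srsf2.1 had 0.79 with an adjusted p of 0.0769. Srsf12 had 0 reads in 5 libraries and up to 456 in others, so little can be said of it.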
